A study of Homo sapiens with 27 samples.

Results

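Genes were compared between 4 libraries of teloHAEC whose genome was cut on either side of a candidate SMAD3 enhancer (the SMAD3 deletion group) and 4 libraries of the same experiment set, set A, whose genome was cut at HPRT1 (the HPRT-targeted group). These 8 libraries were taken by their labels from 27 in the series, and 11467 of the 14008 genes in the count table passed the filter on low counts and were tested. The teloHAEC line derives from human aortic endothelium, the cell layer lining the aorta, and was immortalised with telomerase. Every group received the HiFi form of Cas9 from Streptococcus pyogenes as a protein and RNA complex, by Neon electroporation of 150000 cells per replicate, and RNA was taken 2 days later. SMAD3 deletion cells received guides on both sides of the enhancer. HPRT-targeted cells received the positive control guide of a commercial kit, and a further group of 4 libraries in set A, the negative control, received that kit's guide without a target. Cells were collected as a treated pool. The share of edited copies and the position of the enhancer were not analysed here, so cells with an intact enhancer may contribute to every value of the SMAD3 deletion group.

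SMAD3 is a transcription factor that carries the TGF-beta signal. Ligand-bound TGF-beta receptors phosphorylate SMAD2 and SMAD3, which join SMAD4, enter the nucleus and act on genes such as CCN2 and SMAD7. In endothelial cells the pathway is known for its part in matrix production, quiescence and the shift towards a mesenchymal state, and the SMAD1 and SMAD5 branch, driven by BMP ligands, acts on the ID genes. HPRT1 encodes a purine salvage enzyme and is a usual target for testing cutting efficiency. A comparison of 2 groups that were both cut asks what differs once Cas9 cleavage is present in both. The groups still differ in the number of guides and in the cut sites.

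Total counts ran from 4761002 to 7752413 over the 8 libraries. With no count at all, a gene could still be present at 0.387 to 0.63 CPM (counts per 1e6 counts), the worth of 3 counts, and this limit covers counting error only. The summed level of the 8 endothelial markers examined was 720 to 1180 CPM in the SMAD3 deletion libraries and 765 to 1120 CPM in the HPRT-targeted ones, although VWF, a defining endothelial gene, reached only 0.782 to 3.09 CPM. Of 7 smooth muscle and fibroblast markers 1 had values, ACTA2 at 28.1 to 46.5 CPM, of 4 blood markers 1, CD14 at 0.538 to 2.84 CPM, and of 4 epithelial markers 0. Libraries within a group are not stated to come from separate cultures, so p-values measure the spread between these libraries. SMAD3 deletion libraries carry the label numbers 10 to 13 and the set A controls 26 to 33, and handling that follows the number cannot be told apart from the deletion.

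A pair of libraries stood apart from the rest of set A. SMAD3 deletion replicate 4 had a median correlation of 0.924 with the other libraries of the set and HPRT-targeted replicate 3 one of 0.96, against 0.976 to 0.981 for the other 6. Ribosomal protein genes took 16.7% of the counts in the first and 15.5% in the second, against 11.9% to 14.7% in the other 6. Results whose call or direction turns on these libraries are therefore given with and without them. That alternative was chosen after seeing the data, and its fit holds 3 libraries against 3 beside the 4 negative controls.

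SMAD3 (chromosome 15, 67063763 to 67195195, plus strand, GRCh38) was lower in the SMAD3 deletion group than in the HPRT-targeted group by less than the all-gene test could call. Its level was 102, 105.3, 99.5 and 72.4 CPM in SMAD3 deletion replicates 1 to 4. In HPRT-targeted replicates 1 to 4 it was 150, 125, 100.4 and 121 CPM, and in the negative controls 116 to 136 CPM. HPRT-targeted replicate 3, one of the libraries that stand apart, fell among the deletion libraries, while the other 3 lay above all of them. The log2 fold change was -0.39 ± 0.14 (SE, n = 4 per group, 95% interval -0.70 to -0.08), with an unadjusted p of 0.0173 and an adjusted p of 0.747 over all genes tested by edgeR. Without both libraries that stand apart the groups did not overlap and the log2 fold change was -0.38 ± 0.10 (adjusted p = 0.0985). The lowest adjusted p over 16 alternatives was that one and the highest was 1. The two-sided exact permutation test over the 8 libraries gave p = 0.0857 (0.0857 after adjustment over the 2 target genes; the smallest p that 70 arrangements allow is 0.0286). SMAD3 stood 0.44 ± 0.14 lower on the log2 scale in the deletion group than in the negative control, and HPRT-targeted libraries differed from the negative control by -0.05 ± 0.14; these 3 contrasts share libraries.

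The RefSeq window from 250 bases before to 50 after 1 of 5 annotated SMAD3 starts is printed as an example of its promoters. It lies at chr15:67065352-67065651 on the plus strand of GRCh38.p14. Counts per gene do not tell which start was used.

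SMAD3 promoter: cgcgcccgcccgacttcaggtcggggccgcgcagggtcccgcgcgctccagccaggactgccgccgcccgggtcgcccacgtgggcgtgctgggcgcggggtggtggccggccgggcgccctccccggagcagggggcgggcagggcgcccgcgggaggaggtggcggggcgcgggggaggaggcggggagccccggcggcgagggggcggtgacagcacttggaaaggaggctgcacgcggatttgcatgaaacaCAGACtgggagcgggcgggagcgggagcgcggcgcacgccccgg

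Capitals mark the letters CAGAC, the core that SMAD3 itself binds, searched on both strands. The window holds 1 match, just after the start, and 45.3% of 35116 promoter windows of the same length hold at least 1. The enhancer's sequence is not shown.

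HPRT1 (chromosome X, 134460153 to 134520513, plus strand) was the lower of the pair in the group cut there. Its level was 42.6, 37.7, 39.7 and 69.2 CPM in the SMAD3 deletion libraries. HPRT-targeted libraries had 29.5, 30.0, 42.2 and 28.1 CPM, and negative controls 34.7 to 52.8 CPM. The highest value of each group belonged to the library of that group that stands apart, and the other 3 libraries of each did not overlap. SMAD3 deletion was higher by 0.54 ± 0.21 on the log2 scale (unadjusted p = 0.0219, adjusted p = 0.771; exact permutation p = 0.0857) and, without both libraries, by 0.45 ± 0.15 (adjusted p = 0.157).

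**Figure D1:**
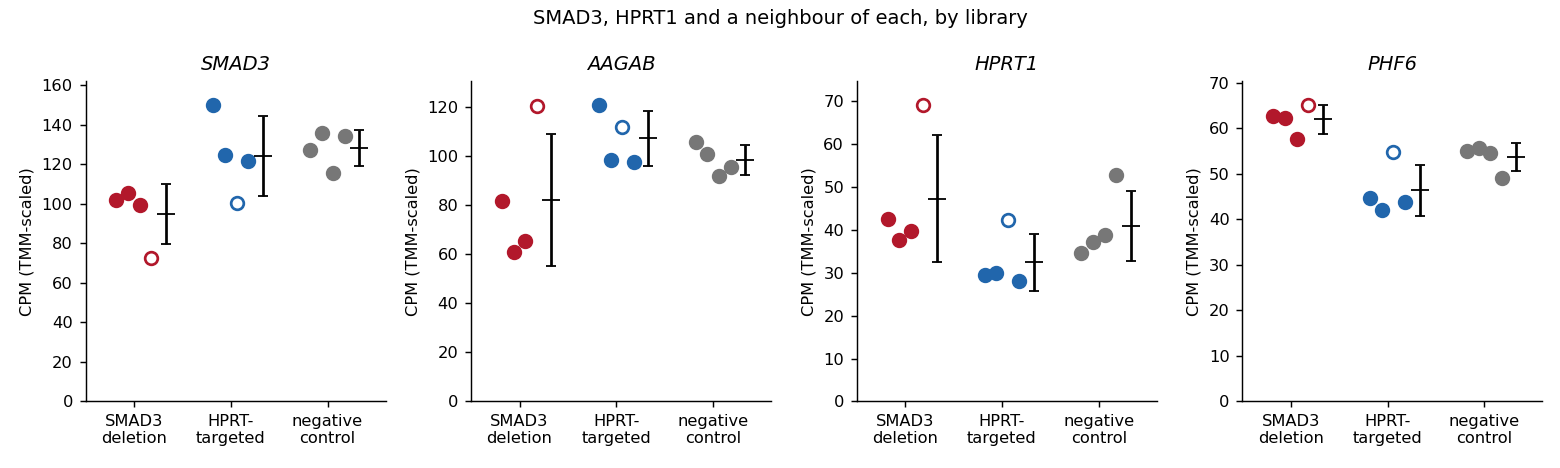
Level of SMAD3, its neighbour AAGAB, HPRT1 and its neighbour PHF6 in each library of set A, in TMM-scaled CPM. Open circles are the libraries that stand apart and the bars are the mean ± SD of 4 libraries; the 3 other SMAD3 deletion libraries lie at 99.5 to 105.3 CPM for SMAD3 and at 61.01 to 81.8 CPM for AAGAB, below the 3 other HPRT-targeted ones.

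Around SMAD3, the neighbour with the largest difference was AAGAB, the next gene on the other strand, which encodes a chaperone of adaptor protein assembly. Of 12 genes tested within 1 Mb, 6 were higher and 6 lower in the SMAD3 deletion group, with log2 fold changes from -0.39 to 0.35, 2 had an unadjusted p under 0.05 (AAGAB and RPL4) and 0 were called, against 5.83% of all genes at that p. AAGAB (chromosome 15, 67201033 to 67255195) has its annotated span begin 5838 bases beyond the end of SMAD3. It stood at 81.8, 61.01, 65.5 and 120 CPM in the deletion libraries and at 121, 98.7, 112 and 97.9 CPM in the HPRT-targeted libraries. Only deletion replicate 4 reached the HPRT-targeted range. The log2 fold change was -0.39 ± 0.18 (adjusted p = 0.84) and, without both libraries that stand apart, -0.62 ± 0.12 (adjusted p = 0.0307), the only 1 of 16 alternatives in which the gene was called. AAGAB overlaps IQCH on the opposite strand, and the strand used in counting is not given in the sources used here. The difference from the negative control was -0.27 ± 0.18 for the deletion and 0.12 ± 0.18 for HPRT targeting.

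RPL4, a protein of the large ribosomal subunit, had 1356, 1076, 1197 and 1187 CPM in the deletion libraries and 1553, 1553, 1426 and 1474 CPM in the HPRT-targeted ones. These groups did not overlap, with a log2 fold change of -0.32 ± 0.09 (adjusted p = 0.746); RPL4 overlaps ZWILCH on the other strand. SMAD6, an inhibitor of BMP signalling and the nearest tested gene on the other side, was at 6.003 to 7.75 CPM against 2.86 to 7.62 CPM, and its sign turned from 0.13 ± 0.28 to -0.17 ± 0.25 without both libraries that stand apart. ZWILCH, a kinetochore protein, and C15orf61 differed by -0.18 ± 0.15 and -0.19 ± 0.16.

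Near HPRT1, PHF6, a chromatin protein encoded 31362 bases before it, was higher in the SMAD3 deletion group. It stood at 62.8, 62.3, 57.7 and 65.2 CPM there and at 44.8, 42.1, 54.7 and 43.9 CPM in the HPRT-targeted libraries. The groups did not overlap. The log2 fold change was 0.42 ± 0.11 (adjusted p = 0.608) and, without both libraries that stand apart, 0.48 ± 0.11 (adjusted p = 0.0478, called in that 1 of 16 alternatives). The negative controls, at 49.1 to 55.7 CPM, lay between, 0.21 ± 0.11 below the deletion and 0.21 ± 0.11 above the HPRT-targeted group on the log2 scale. PABIR2, the next gene on the far side, differed by 0.14 ± 0.18, and of 9 genes tested within 1 Mb of HPRT1, 4 were higher and 5 lower.

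Across all genes, 0 of 11467 passed an adjusted p of 0.05 by edgeR (0% of genes). At an unadjusted p under 0.05 there were 669 (5.83%), 339 higher (2.96%) and 330 lower (2.88%) in the SMAD3 deletion group. The groups did not overlap for 190 genes that were higher (1.66%) and 182 that were lower (1.59%). The median log2 fold change of all genes was 0.01. DESeq2 called 17 genes, 7 higher and 10 lower, and limma voom with sample quality weights 5, all lower. Without both libraries that stand apart, edgeR called 55 of 11574 genes (0.475%), 17 higher (0.147%) and 38 lower (0.328%). All 55 had the same sign with all libraries, and 43 of them had an unadjusted p under 0.05 there. Every library of the smaller fit is also in the full one, so these results are not independent. At an unadjusted p under 0.05 there were then 779 higher (6.73%) and 882 lower genes (7.62%), and with 3 libraries a group the groups did not overlap for 1054 higher (9.19%) and 1050 lower genes (9.16%). The common dispersion of the counts, a measure of the spread between libraries of a group, was 0.0434 with all libraries and 0.0142 without the pair. Each gene followed below through the alternatives had an adjusted p of 1 under at least 1 of them, also where another called it.

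Among the genes higher in the SMAD3 deletion group with the smallest p was MARVELD1, a membrane protein. It had 65.5, 77.1, 63.02 and 72.6 CPM in the deletion libraries against 45.2, 46.5, 33 and 46.6 CPM, with every deletion library above every HPRT-targeted one. A log2 fold change of 0.70 ± 0.14 (adjusted p = 0.352) came to 0.57 ± 0.12 without both libraries that stand apart, where it passed (adjusted p = 0.0366). MARVELD1 also passed by DESeq2 (adjusted p = 0.00695). ADAM15, a membrane metalloproteinase of endothelial cells, had 210, 220, 184 and 232 CPM against 129, 160, 152 and 148 CPM. Its groups were again separate, at 0.52 ± 0.11 (adjusted p = 0.352) with all libraries and 0.49 ± 0.10 without the pair (adjusted p = 0.0401). ADAM15 passed by DESeq2 as well (adjusted p = 0.00724). RSRP1, a gene of an arginine and serine rich protein that overlaps TMEM50A on the other strand, had the largest log2 fold change of the higher genes in the plot of genes with the smallest p. It stood at 9.34, 23.0, 10.8 and 16.4 CPM against 4.62, 5.67, 9.20 and 6.12 CPM. The log2 fold change was 1.22 ± 0.29 (adjusted p = 0.59). RSRP1 passed without the pair (1.40 ± 0.29, adjusted p = 0.0366) and by DESeq2 (adjusted p = 0.0459). In this case it was the HPRT-targeted group that lay apart from the negative control, by -0.91 ± 0.29, the deletion differing from it by 0.31 ± 0.27.

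SNHG1, a host gene of small nucleolar RNAs, was also lowest in the HPRT-targeted group: 28.1, 37.7, 38.6 and 33.7 CPM in the deletion libraries, 24.2, 17.99, 23.2 and 26.99 CPM in the HPRT-targeted ones and 28.7 to 36.5 CPM in the negative controls. Its log2 fold change was 0.58 ± 0.15 (adjusted p = 0.594). NF1, which encodes the RAS inhibitor neurofibromin, was at 21.3 to 24.7 CPM against 12.4 to 18.6 CPM (0.59 ± 0.14, adjusted p = 0.594). The zinc finger gene ZNF358 (0.57 ± 0.14), TMEM259 (0.51 ± 0.13) and CARD8-AS1 (0.73 ± 0.16), which is antisense to CARD8, also had separate groups with adjusted p from 0.427 to 0.594. CARD8-AS1 passed by DESeq2 alone (adjusted p = 0.0401).

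Of the genes lower in the SMAD3 deletion group, MT2A, a metallothionein that binds zinc and copper, was present at the highest level. It had 8061, 7838, 8989 and 6092 CPM in the deletion libraries and 12750, 9714, 11710 and 11650 CPM in the HPRT-targeted libraries. All 4 deletion libraries lay below all HPRT-targeted and all negative control libraries, the latter at 10450 to 11680 CPM. On the log2 scale the difference was -0.56 ± 0.12 (adjusted p = 0.352), and MT2A passed by DESeq2 and without both libraries that stand apart (-0.46 ± 0.09, adjusted p = 0.0366). Of 6 metallothionein genes tested, a list chosen after their values were seen, 4 were lower and 2 higher, 3 had an unadjusted p under 0.05 (all lower, against 2.88% of all genes), and the median log2 fold change was -0.43, against 0.01 over all genes. MT1X and MT1E were the other 2, at -0.83 ± 0.22 and -0.41 ± 0.15, and MT1A and MT1F had values above 0, at 0.25 ± 0.30 and 0.08 ± 0.31. Metallothioneins are near-identical copies, so counts may be split between them.

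Metallothionein genes are driven through metal response elements. The MT2A window of RefSeq (chr16:56608334-56608633, plus strand, GRCh38.p14) is printed to show them for the metallothionein with the highest count. Capitals mark the letters TGCACNC and TGCGCNC, on either strand.

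MT2A promoter: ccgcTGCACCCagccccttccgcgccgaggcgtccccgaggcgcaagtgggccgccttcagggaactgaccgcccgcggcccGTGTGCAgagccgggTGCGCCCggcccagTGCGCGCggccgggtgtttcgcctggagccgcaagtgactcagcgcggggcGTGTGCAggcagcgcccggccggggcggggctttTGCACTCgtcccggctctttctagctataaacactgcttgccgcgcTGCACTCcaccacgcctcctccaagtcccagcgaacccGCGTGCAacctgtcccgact

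This window holds 8 matches, and 29.6% of the 35116 windows hold at least 1.

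PTGR1, an oxidoreductase that inactivates lipid mediators and a known target of the oxidative stress factor NRF2, had 162, 170.0, 159 and 128 CPM in the deletion libraries and 223, 241, 218 and 226 CPM in the HPRT-targeted libraries. The groups were separate by a wide margin. Its difference was -0.55 ± 0.11 on the log2 scale (adjusted p = 0.352), and PTGR1 passed by DESeq2, by limma voom and without both libraries that stand apart (-0.50 ± 0.09, adjusted p = 0.0218). TRIM16L, another gene of that response, had 40.0, 56.3, 55.8 and 42.9 CPM against 71.7, 72.1, 98.7 and 79.5 CPM, at -0.72 ± 0.16 (adjusted p = 0.478). TRIM16L passed by DESeq2 alone (adjusted p = 0.0401). Of 28 NRF2 targets tested, a list likewise chosen after values were seen, 23 were lower and 5 higher. Unadjusted p was under 0.05 for 6 lower genes (21.4%, against 2.88% of all genes) and 1 higher gene, EPHX1, with a median of -0.15. The ferritin genes FTH1 (-0.38 ± 0.11) and FTL (-0.35 ± 0.11) and the cystine transporter gene SLC7A11 (-0.36 ± 0.12) were among the 6. Against these, the much used NRF2 targets NQO1 (-0.17 ± 0.13), HMOX1 (-0.45 ± 0.31) and TXNRD1 (0.04 ± 0.15) did not reach an unadjusted p of 0.05. The summed level of the list was 8962 to 9533 CPM in the deletion libraries, 10490 to 11990 CPM in the HPRT-targeted libraries and 9757 to 10380 CPM in the negative controls.

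EEF2, the translation elongation factor, had 1902, 1825, 1681 and 1791 CPM in the deletion libraries and 2673, 2382, 2161 and 2450 CPM in the HPRT-targeted libraries. No library of 1 group reached the other. EEF2 stood at -0.42 ± 0.09 on the log2 scale (adjusted p = 0.352) and passed under 3 of 16 alternatives, DESeq2, limma voom and the fit without the pair (-0.48 ± 0.08, adjusted p = 0.0192). CHKA, a choline kinase, was at 15.99 to 19.5 CPM against 25.9 to 29.1 CPM (-0.63 ± 0.13, adjusted p = 0.352). KRT10, a keratin, was at -0.45 ± 0.10 (adjusted p = 0.582). Both passed by DESeq2 alone, with adjusted p of 0.0197 for CHKA and 0.0262 for KRT10. DCAF11, a ubiquitin ligase subunit, was at -0.57 ± 0.14 (adjusted p = 0.594) with all libraries and passed without the pair (-0.68 ± 0.12, adjusted p = 0.0192). COX6C and OVCA2, described next, were also among the lower genes with the smallest p. Of the genes named so far in this ranking, RSRP1, NF1, PTGR1, CHKA, COX6C, KRT10, DCAF11 and CARD8-AS1 overlap a gene on the opposite strand, so their counts may hold reads of that gene.

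**Figure D2:**
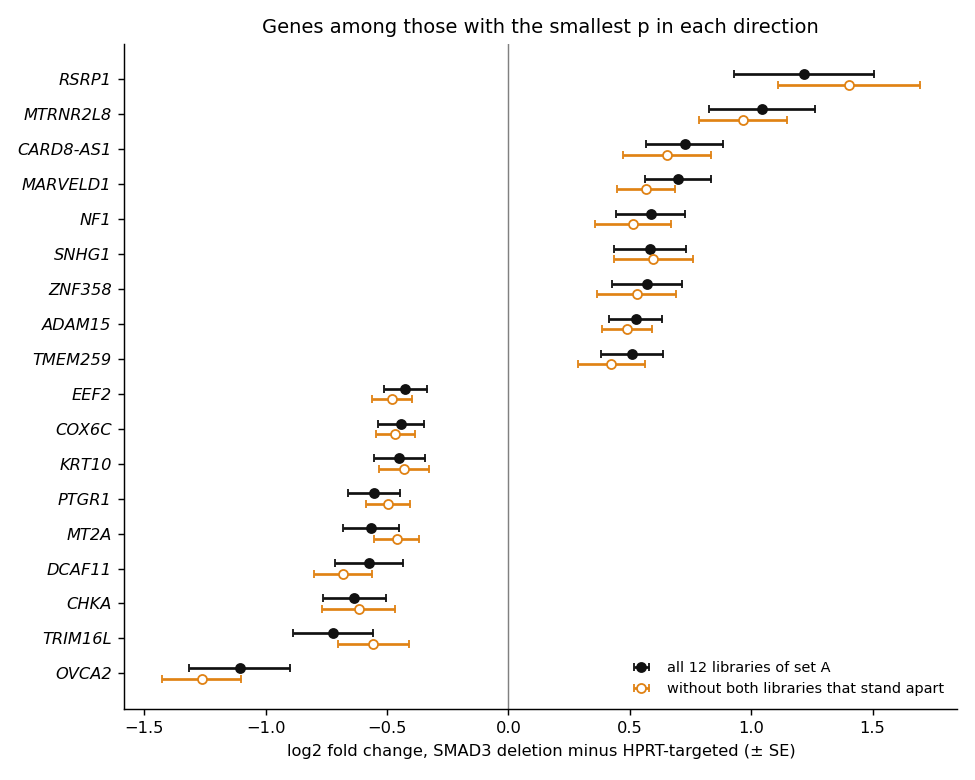
Log2 fold change ± SE of genes among those with the smallest p in each direction, 9 higher and 9 lower, with all 12 libraries of set A (filled) and without both libraries that stand apart (open). No gene shown changes sign between the fits, and the values run from -1.11 for OVCA2 to 1.22 for RSRP1 with all libraries.

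OVCA2, which had the smallest p of all genes with all libraries, cannot be read as a single gene. It lies inside DPH1 on the same strand of chromosome 17 and both annotated genes end at position 2043430, so a 3' end read there fits either. OVCA2 received 245, 173, 286 and 161 counts in the SMAD3 deletion libraries and 559, 459, 258 and 328 in the HPRT-targeted ones. DPH1, an enzyme of diphthamide synthesis, received 347, 353, 273 and 257 counts and 5, 0, 232 and 0 counts. The HPRT-targeted libraries with 5, 0 and 0 DPH1 counts had the most OVCA2 counts. Replicate 3 of each group had near-equal counts of OVCA2 and DPH1. Their sum was 70.3 to 79.1 CPM of the library total in the deletion libraries, 68.9 to 76.7 in the HPRT-targeted libraries and 65.8 to 77.1 in the negative controls, and these ranges overlap. The share of the sum given to DPH1 was 48.8% to 67.1% in the deletion libraries, 0% to 47.3% in the HPRT-targeted libraries and 4.66% to 30.7% in the negative controls of set A. In the 15 libraries of set B it was 88.6% to 100%. The values measured thus differ in how reads were divided between the genes, and what sets the division was not tested. By edgeR, OVCA2 was at -1.11 ± 0.21 (adjusted p = 0.352) with all libraries and at -1.26 ± 0.16 without the pair (adjusted p = 0.000595), and it passed under 4 of 16 alternatives. DPH1 had the opposite sign, at 2.18 ± 0.98 (adjusted p = 0.84) with all libraries and at 7.18 ± 0.68 without the pair, where its adjusted p of 1.82e-05 was the smallest of all genes. With 5, 0 and 0 counts left in the HPRT-targeted libraries, that fitted value depends on the prior count and does not measure the size of the difference.

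**Figure D3:**
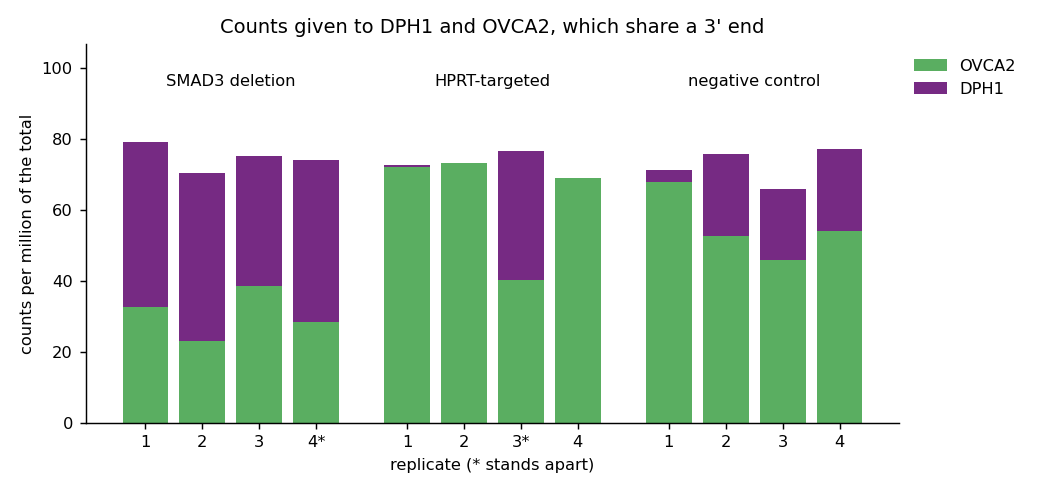
Counts assigned to OVCA2 and DPH1, as CPM of the library total, in each library of set A, stacked, so that the bar's height is their sum. The sums stay between 65.8 and 79.1 in all 12 libraries while the DPH1 part runs from 0% to 67.1%.

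Genes of the respiratory chain, encoded in the mitochondrial and in the nuclear genome, were mostly lower in the SMAD3 deletion group with all libraries. More of them were lower once the libraries that stand apart were left out. COX6C, a nuclear subunit of cytochrome c oxidase, had 406, 421, 400.3 and 367 CPM in the deletion libraries and 564, 581, 479 and 543 CPM in the HPRT-targeted libraries. The deletion libraries lay below all others in set A, the negative controls being at 524 to 557 CPM. Its log2 fold change of -0.44 ± 0.09 (adjusted p = 0.357) passed under 3 of 16 alternatives, among them the fit without the pair (-0.47 ± 0.08, adjusted p = 0.0192). MT-CO2, a mitochondrial subunit of the same enzyme, had 2063, 2282, 2156 and 2896 CPM against 3925, 3977, 1856 and 3199 CPM. HPRT-targeted replicate 3 was the lowest of all 8 libraries, while the other 3 of its group lay above every deletion library, of which replicate 4 was the highest. The log2 fold change was -0.46 ± 0.19 (adjusted p = 0.819) with them and -0.78 ± 0.10 (adjusted p = 0.000523) without them.

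MT-CO3, a further subunit, was at 1911, 2001, 2059 and 2877 CPM against 3475, 3408, 2188 and 2855 CPM. Its value moved from -0.43 ± 0.15 (adjusted p = 0.746) to -0.71 ± 0.09 (adjusted p = 0.000523). Of the 13 protein genes of the mitochondrial genome, 9 were lower and 4 higher with all libraries, 2 lower ones had an unadjusted p under 0.05 (15.4%) and 0 were called, with a median of -0.35. Without the pair 12 were lower, 7 were called (MT-CO2, MT-CO3, MT-ND1, MT-ND3, MT-ND4, MT-ATP6 and MT-CYB, all lower, against 0.328% of all genes called lower) and the median was -0.59. Neighbouring genes of the mitochondrial genome are cut from shared transcripts, so the 13 values are not independent.

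The 80 nuclear genes of respiratory chain subunits, a list chosen after values were seen, held 59 lower and 21 higher genes, 8 lower at an unadjusted p under 0.05 (10%) and a median of -0.12. Without the pair 70 were lower, 43 of them at that p (against 7.62% of all genes), 5 were called (COX6C, NDUFA1, NDUFV3, NDUFS6 and ATP5MC3) and the median was -0.24. Ribosomal protein genes, chosen in the same way, gave similar counts. Of 84, 66 were lower, 18 at an unadjusted p under 0.05 (21.4%), with a median of -0.12, and without the pair 79 were lower, 46 at that p, 1 was called (RPS20) and the median was -0.22. The shares of all genes are 2.88% lower at that p with all libraries, and 7.62% lower at that p and 0.328% called lower without the pair. With all libraries, the medians against the negative control were 0.02 (nuclear respiratory chain) and -0.02 (ribosomal protein genes) for the deletion. For HPRT targeting they were 0.15 and 0.12, and the contrasts share libraries. The deletion medians include replicate 4, whose summed levels were 22210 and 169500 CPM. The other deletion libraries had 14840 to 17120 and 114000 to 138300 CPM. Negative controls had 16820 to 17680 and 128500 to 140800 CPM, and HPRT-targeted libraries 17810 to 20100 and 135500 to 157300 CPM. Ribosomal protein genes made up 13.9%, 11.9%, 12.1% and 16.7% of all counts in deletion replicates 1 to 4, and 14.7%, 13.9%, 15.5% and 13.5% in the HPRT-targeted libraries. Mitochondrial genes made up 1.77%, 1.999%, 2.04% and 2.42% against 2.58%, 3.11%, 1.53% and 2.49%. Shares of this kind can also move with RNA quality, whose part in the result was not tested.

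MTRNR2L8, a nuclear gene on chromosome 11 that closely resembles the large mitochondrial ribosomal RNA, went the other way. It had 1306, 956, 979 and 1603 CPM in the deletion libraries and 548, 631, 695 and 472 CPM in the HPRT-targeted libraries. Each deletion library lay above each other library of set A, the negative controls being at 276 to 558 CPM. Its log2 fold change was 1.04 ± 0.22 (adjusted p = 0.352), and 0.97 ± 0.18 without the pair (adjusted p = 0.0293). MTRNR2L8 also passed by DESeq2 (adjusted p = 0.014). Reads of the mitochondrial RNA and of this gene may not be separable, so the gene of origin is uncertain.

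**Figure D4:**
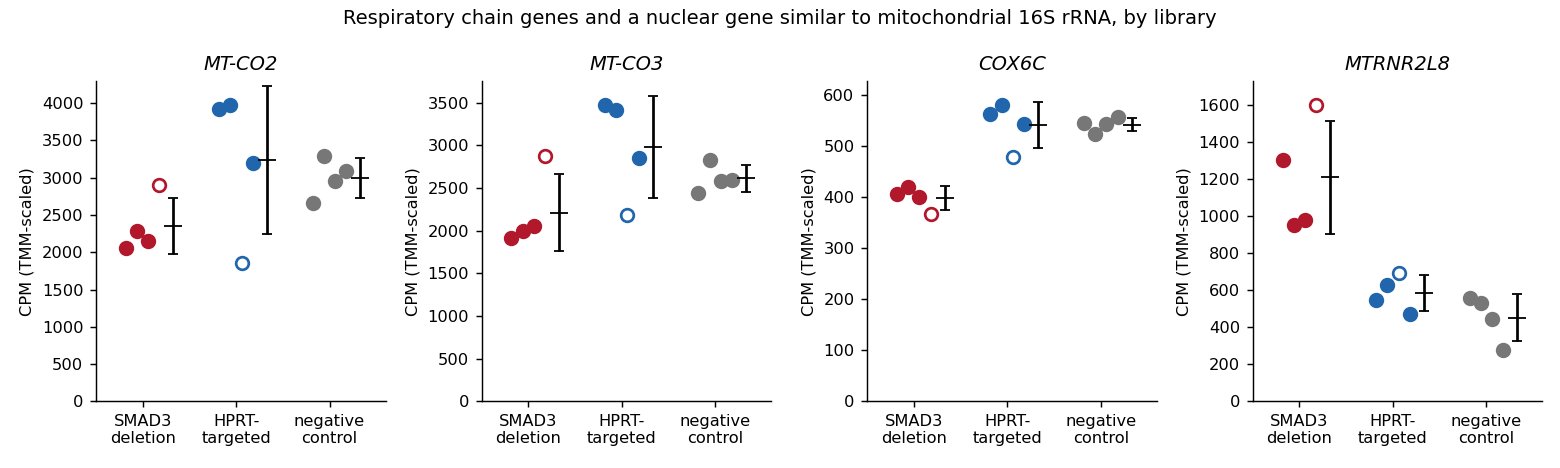
Level of MT-CO2, MT-CO3, COX6C and MTRNR2L8 in each library of set A, in TMM-scaled CPM, with the mean ± SD of 4 libraries. Open circles are the libraries that stand apart: with them the SMAD3 deletion and HPRT-targeted groups overlap for MT-CO2 and MT-CO3, and without them they do not; for COX6C and MTRNR2L8 the groups are separate with all libraries.

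Of 37 TGF-beta and SMAD3 targets tested, 18 were higher and 19 lower in the SMAD3 deletion group, 0 higher and 1 lower had an unadjusted p under 0.05 (2.70% lower, against 2.88% of all genes), 0 were called and the median log2 fold change was -0.03. Without the pair 19 were higher and 18 lower and the median was 0.00, with 1 higher and 2 lower at that p (against 6.73% and 7.62% of all genes). The list's summed level was low in both libraries that stand apart, at 4936 CPM in deletion replicate 4 against 7164 to 8398 CPM in the other 3, and at 5319 CPM in HPRT-targeted replicate 3 against 6512 to 7958 CPM. FN1, the fibronectin gene, was at 524, 1197, 816 and 43.8 CPM in the deletion libraries and at 547, 978, 82.7 and 797 CPM in the HPRT-targeted ones, lowest in these 2 libraries. Its log2 fold change was 0.10 ± 0.71 with them and 0.12 ± 0.21 without them. CCN2, a matricellular protein, differed by 0.03 ± 0.13, and SMAD7, the inhibitory SMAD, by 0.33 ± 0.51 at no more than 3.96 CPM. The groups overlapped for both genes. The members with the smallest p and a mean of at least 10 CPM were ITGAV, an integrin chain (-0.22 ± 0.11), CDKN2B, a cell cycle inhibitor (-0.29 ± 0.15), SKIL, a SMAD repressor (0.20 ± 0.12), PDGFB, a growth factor (0.30 ± 0.19), and BHLHE40, a transcription factor (0.24 ± 0.21), with adjusted p from 0.843 to 0.964.

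Among 34 components of TGF-beta and BMP signalling, 23 were higher and 11 lower, 1 higher had an unadjusted p under 0.05 (2.94%, against 2.96% of all genes), 0 were called and the median was 0.07. SMAD2 and SMAD4, the partners of SMAD3, overlapped between the groups. SMAD2 was at 61.1 to 86.8 CPM against 66.0 to 75.6 CPM (0.06 ± 0.12). SMAD4 had 34.1, 30.2, 33.1 and 54.9 CPM against 40.0, 33.2, 45.2 and 47.4 CPM, with values of -0.13 ± 0.20 with all libraries and -0.31 ± 0.16 without the pair. The ligand TGFB1 (0.32 ± 0.23), the ubiquitin ligase SMURF2 (0.31 ± 0.16), the receptor ACVR1 (-0.28 ± 0.15) and the ligand BMP6 (-0.14 ± 0.13) had adjusted p from 0.862 to 0.978.

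For BMP and SMAD1/5 targets, 5 of 10 were higher and 5 lower. At an unadjusted p under 0.05 there was 1 lower (10%, against 2.88% of all genes), ID3, an inhibitor of basic helix-loop-helix factors. ID3 had 190, 246.0, 246 and 268 CPM in the deletion libraries and 266, 324, 323 and 306 CPM in the HPRT-targeted ones, a log2 fold change of -0.36 ± 0.13 (adjusted p = 0.746). Deletion replicate 4 passed the lowest HPRT-targeted library by a small margin, and the other 3 lay below. ID1, of the same family, differed by -0.16 ± 0.13 and HEY2, a Notch and BMP target, by 0.07 ± 0.16. Among 34 matrix and basement membrane genes, 15 were higher and 19 lower, with a median of -0.03. At an unadjusted p under 0.05 there was 1 in each direction (2.94% each, against 2.96% higher and 2.88% lower of all genes). Their summed level was 2396 CPM in deletion replicate 4 and 2705 CPM in HPRT-targeted replicate 3, against 4498 to 5448 CPM and 4555 to 5099 CPM in the other 3 libraries of each group. The median was 0.28 without deletion replicate 4, -0.20 without HPRT-targeted replicate 3 and 0.00 without both, where 17 were higher and 17 lower. PLOD2, a collagen lysyl hydroxylase, was the higher one, at 127, 129, 137 and 143 CPM against 69.0, 104, 123 and 93.4 CPM (0.46 ± 0.15, adjusted p = 0.746, and 0.55 ± 0.13, adjusted p = 0.0513, without the pair), with separate groups. ADAMTS4, a protease of matrix proteoglycans, was the lower one (-0.37 ± 0.17, adjusted p = 0.84). Mesenchymal genes (7 of 15 higher, median -0.01) and endothelial identity genes (16 of 34 higher, median -0.04) had 0 members at an unadjusted p under 0.05. Without the pair, 2 endothelial genes were higher and 5 lower at that p, and 1 mesenchymal gene was higher. The shares of all genes in that fit were 6.73% higher and 7.62% lower.

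Cas9 cutting is known to induce DNA damage genes through p53. Between these groups, both cut, 0 p53 targets were called, and so were 0% of all genes tested. The absence of calls is therefore not particular to this list. Of 39 p53 targets 24 were higher and 15 lower in the SMAD3 deletion group, 2 higher had an unadjusted p under 0.05 (5.13%, against 2.96% of all genes), 0 were called and the median was 0.05. The sign of that median turned to -0.05 without the pair, and to -0.05 also without deletion replicate 4 alone. Without the pair 5 of these targets were higher and 1 lower at that p, against 6.73% and 7.62% of all genes. CDKN1A, the p21 cell cycle inhibitor, had 476, 360.3, 327 and 575 CPM in the deletion libraries and 594, 460.2, 473 and 406 CPM in the HPRT-targeted libraries. These overlapped, at -0.15 ± 0.19 (adjusted p = 0.992). MDM2, the p53 ubiquitin ligase, differed by 0.09 ± 0.16, BAX, a death effector, by 0.33 ± 0.18, and ASCC3 by 0.27 ± 0.13. Each group's own difference from the negative control shares libraries with the comparison. With all libraries it was 0.45 ± 0.19 for the deletion and 0.60 ± 0.19 for HPRT targeting in CDKN1A. In MDM2 it was 0.49 ± 0.16 and 0.39 ± 0.16, and the medians of the p53 list were 0.26 and 0.19. The list summed to 3802 CPM in deletion replicate 4 and to 2789 to 3422 CPM in the other deletion libraries. It summed to 2929 to 3464 CPM in the HPRT-targeted libraries and 2479 to 2979 CPM in the negative controls. Double-strand break repair genes (21 of 38 higher) had a median of 0.01, and 0.14 without the pair. In that smaller fit 5 were higher and 0 lower at an unadjusted p under 0.05, against 6.73% and 7.62% of all genes. In the fit with all libraries ATR was at 0.31 ± 0.16 and XRCC5 at -0.20 ± 0.10.

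Proliferation genes changed sides with the libraries used. Of 40, 16 were higher and 24 lower with a median of -0.05, and without the pair 31 were higher and 9 lower with a median of 0.11, with 9 higher and 2 lower at an unadjusted p under 0.05 (against 6.73% and 7.62% of all genes). The summed level of the list was 3793 to 4309 CPM in deletion replicates 1 to 3 and was 2606 CPM in replicate 4, and it was 3460 to 3918 CPM in the HPRT-targeted libraries. TYMS, thymidylate synthase, had 103, 89.8, 101 and 96.6 CPM against 114, 111, 128 and 131 CPM (-0.31 ± 0.11, adjusted p = 0.746), with separate groups. CCNB2, a mitotic cyclin, was at -0.41 ± 0.16 and CDT1, a replication licensing factor, at 0.33 ± 0.15. With all libraries, the list's median against the negative control was -0.27 for the deletion and -0.20 for HPRT targeting. The list summed to 4132 to 4832 CPM in the negative controls. Without the pair it summed to 3793 to 4309 CPM in the deletion libraries and 3460 to 3821 CPM in the HPRT-targeted ones.

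In the other lists 0 members were called with all libraries. Cholesterol synthesis and uptake genes were lower in 19 of 24, with 2 lower at an unadjusted p under 0.05 (8.33%, against 2.88% of all genes), among them SC5D, a sterol desaturase (-0.29 ± 0.13). Their median was -0.06, and -0.14 without the pair, where 7 were lower at that p (against 7.62% of all genes) and 1 member was called (against 0.328% called lower). HMGCS1, an early enzyme of the same route, differed by -0.31 ± 0.14. Of 31 interferon-stimulated genes, 22 were higher (median 0.12), and 16 were without the pair (median 0.00). Of 20 heat shock genes, 7 were higher and 13 lower with all libraries (median -0.02), and 16 were higher and 4 lower without the pair (median 0.08, with 4 higher and 1 lower at that p). They held both HSPE1, a mitochondrial co-chaperone, at 398 to 491 CPM against 516 to 594 CPM (-0.33 ± 0.10, adjusted p = 0.746), and HSPB1, a small heat shock protein, at 682 to 768 CPM against 598 to 665 CPM (0.21 ± 0.09, adjusted p = 0.84). Hypoxia and glycolysis genes (19 of 28 lower, median -0.07), purine genes (12 of 22 lower, -0.01), stress response genes of the unfolded protein response (20 of 30 higher, 0.06), NF-kB genes (12 of 19 higher, 0.04), YAP and TEAD targets (14 of 22 higher, 0.03), AP-1 and immediate early genes (11 of 23 higher, 0.00) and epithelial and blood cell genes (3 of 5 higher, 0.01) had at most 2 members at an unadjusted p under 0.05 in either direction with all libraries. Without the pair, 6 of 23 YAP and TEAD targets were higher and 1 lower at that p, and 6 of 28 hypoxia and glycolysis genes were lower and 2 higher, against 6.73% of all genes higher and 7.62% lower; the other lists of that group had at most 2 in either direction.

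**Figure D5:**
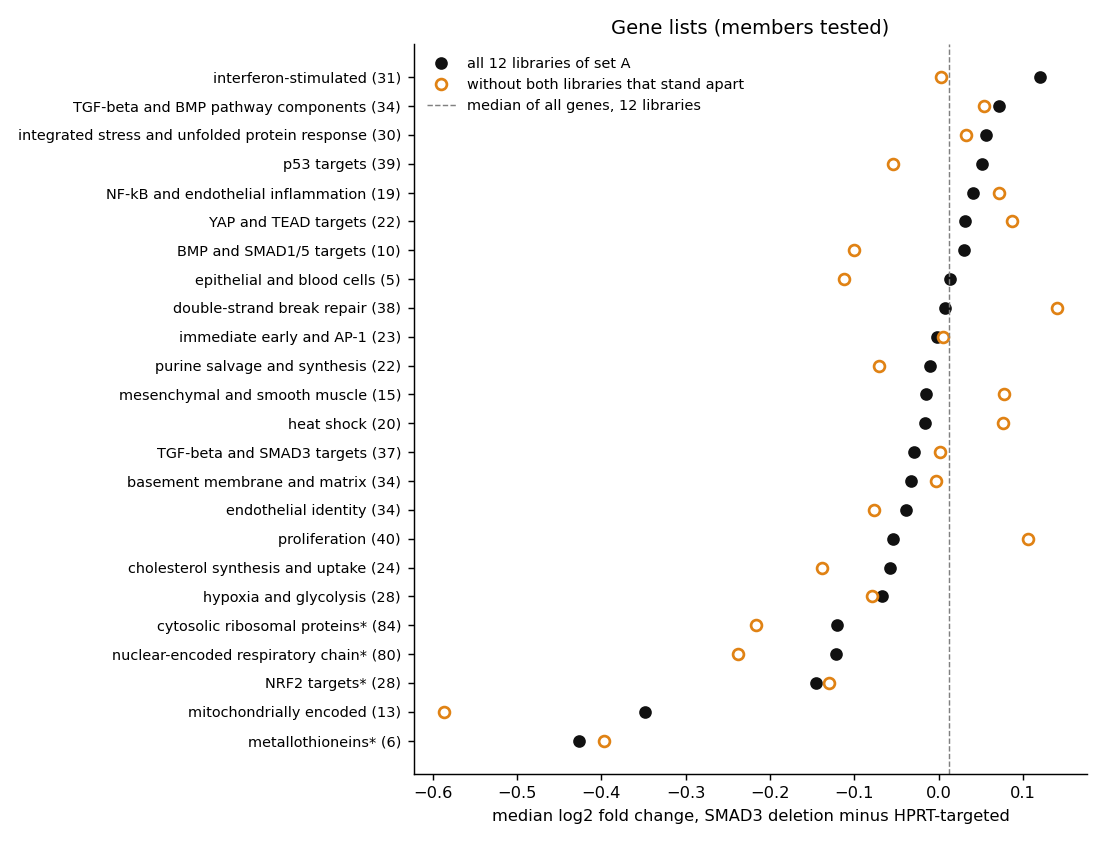
Median log2 fold change of each gene list (members tested in parentheses) with all libraries of set A (filled) and without both libraries that stand apart (open); an asterisk marks the 4 lists chosen after values were seen and the dashed line the median of all genes, 0.01. Metallothioneins (-0.43) and mitochondrially encoded genes (-0.35, and -0.59 without the pair) lie farthest from it.

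Some genes were called only in the fit without the pair. TFRC, the transferrin receptor, had 33.2, 36.2, 32.8 and 12.4 CPM in the deletion libraries and 60.6, 78.1, 55.4 and 47.7 CPM in the HPRT-targeted libraries, separate in both fits (-1.07 ± 0.28, adjusted p = 0.594, and -0.88 ± 0.18, adjusted p = 0.0366). CD70, a ligand of the TNF family, had 136, 142, 140 and 208 CPM against 76.0, 93.0, 141 and 107 CPM. HPRT-targeted replicate 3 alone reached the deletion group, and the difference of 0.59 ± 0.18 (adjusted p = 0.746) was 0.60 ± 0.11 without the pair (adjusted p = 0.0283). MMP14, a membrane matrix metalloproteinase, had 177, 220, 192 and 61.1 CPM against 92.9, 145, 80.3 and 144 CPM. Deletion replicate 4 was here the lowest of all 8 libraries, and the value moved from 0.49 ± 0.30 (adjusted p = 0.899) to 0.62 ± 0.14 (adjusted p = 0.0482). LIFR, a cytokine receptor (0.60 ± 0.13), HYOU1, a chaperone of the endoplasmic reticulum (0.57 ± 0.11), and the RNA helicase gene DDX39B (0.61 ± 0.14) were higher, and CACNB3, a calcium channel subunit (-0.80 ± 0.15), was lower, with adjusted p from 0.0293 to 0.0482 in that fit.

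The difference between SMAD3 deletion and HPRT targeting was set against the same difference in set B, where the deleted enhancer was that of LDAH, a lipid droplet hydrolase; the 2 contrasts share no library. Their difference was called for 0 of 12055 genes by edgeR (542 at an unadjusted p under 0.05, 4.5%) and for 1 gene by limma voom. Leaving out the libraries of both sets that stand apart gave 39 of 12366 genes (0.315%). For SMAD3 the set A value was -0.41 and the set B value 0.09, a difference of -0.49 ± 0.27 (adjusted p = 0.99). DCAF11 had -0.59 and 0.25 (difference -0.84 ± 0.26, adjusted p = 0.99, and -0.98 with adjusted p = 0.0345 without the libraries that stand apart). For PTGR1 the values were -0.57 and -0.45, for COX6C -0.46 and -0.35 and for MTRNR2L8 1.03 and 0.57, and their differences were -0.12 ± 0.20, -0.11 ± 0.24 and 0.46 ± 0.38. Other genes described above had opposite signs in the 2 sets. EEF2 was at -0.44 and 0.15 (difference -0.60 ± 0.16, adjusted p = 0.764, and 0.113 without the libraries that stand apart). MT-CO3 was at -0.45 and 0.42 (difference -0.87 ± 0.29, adjusted p = 0.99, and -0.94 with adjusted p = 0.042 without those libraries). For MT-ND3 the values were -0.38 and 0.17 (difference -0.55 ± 0.29, adjusted p = 0.99, and -0.97 with adjusted p = 0.0342), and for RSRP1 they were 1.202 and -0.16 (difference 1.36 ± 0.50, adjusted p = 0.99, and 0.138).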

How the data were processed

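Messenger RNA 3' ends were measured in 27 libraries prepared with the QuantSeq FWD kit and read single-end for 86 cycles, per the labels' protocols. The authors deposited raw counts per gene for all 27 libraries in a table whose columns are named as the samples are. The build hg38 and edgeR 3.24.3 are named per the submitters' processing notes; for the aligner, the counter and its strand setting, the name is not given in the sources used here. Symbols were matched for 13949 of 14008 gene IDs through a gene name table and for 57 more through GENCODE 29, which also gave positions (GRCh38) for 13899. Promoters are from RefSeq (GRCh38.p14).

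Counts were analysed in R 4.3.3 with edgeR 4.0.16: TMM scaling, filterByExpr by group, a fit of 3 means over the 12 libraries of set A by quasi-likelihood, the two-sided test of SMAD3 deletion minus HPRT-targeted, and Benjamini-Hochberg adjustment over all genes at 0.05. The SE is the log2 fold change divided by the square root of F. CPM are TMM-scaled. The 2 target genes also had an exact permutation test on log2 CPM with a prior count of 2. A library stands apart where its median correlation lies more than 3 scaled median absolute deviations below that of its set. Scripts were tested on simulated counts with the same dispersion for all genes and no library that stands apart. The real counts differ in both, so that test does not tell what the main fit could call. Within the groups of set A no libraries were copies: chi-square per degree of freedom between them was 3.03 to 68. Libraries of set B and pairs across groups were not checked.

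Alternatives were DESeq2 1.42.0, limma 3.58.1 voom with quality weights, other size factors, filters and samples in the fit, windows of 0.5 and 2 Mb, each library left out, and, added after seeing the data, all libraries that stand apart left out. Named genes are the targets; the nearest genes and those near the targets with unadjusted p under 0.05; per direction the called genes, filled up to 10 by smallest p at a mean of at least 10 CPM, likewise without the pair; the 3 (for 4 lists 5) list members of smallest p; and SMAD2, SMAD4, CDKN1A, MDM2, SMAD7 and CCN2. Some genes that this rule names are not reported here. Other genes given values (FN1, MT1X, MT1E, MT1A, MT1F, FTH1, FTL, NQO1, HMOX1, TXNRD1) were chosen after their values were seen. The comparison, members and 20 lists were chosen with earlier results of these data known, and 4 further lists after the values here were seen. Lists were not tested.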

Additional observations from a re-analysis of the deposited data

Results flagged for a closer look

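In 17 of 226 groups of 4 libraries checked, 1 library lay far from the other 3 by Dixon's ratio. Chance gives about 1 in 20 for groups not chosen by their values. Some genes checked, DPH1, DDX39B, CD70 and TFRC among them, were named only because they were called without both libraries that stand apart. The number of groups found and the libraries found in them are not independent of that choice. SMAD3 deletion replicate 4 was that library in 8 of the 17 and HPRT-targeted replicate 3 in 6, and these are the libraries that stand apart by their correlation with the rest of the set. What sets them apart was not tested.

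SMAD3 deletion replicate 4 was high for HPRT1 (69.17 CPM, the other 3 at 37.7 to 42.6), SMAD4 (54.94, others 30.2 to 34.1), MT-CO3 (2877, others 1911 to 2059), DDX39B (123, others 71.7 to 72.8) and CD70 (207.9, others 136 to 142). It was low for PABIR2 (10.45, others 14 to 14.6), TNIP1, an inhibitor of NF-kB signalling (20, others 33.2 to 35.4), and TFRC (12.43, others 32.8 to 36.2).

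HPRT-targeted replicate 3 was high for HPRT1 (42.2 CPM, others 28.1 to 30.0), HSPB1 (664.9, others 598 to 606) and DPH1 (36.81, others 0 to 0.679), and low for SMAD6 (2.856, others 7.06 to 7.62), MARVELD1 (33, others 45.2 to 46.6) and ACVR1 (32.52, others 40.1 to 41.0).

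Of the remaining 3, SMAD3 deletion replicate 1 was high for PFAS, a purine synthesis enzyme (29.35 CPM, others 26.1 to 26.3), SMAD3 deletion replicate 3 was low for DPH1 (35.4, others 45.1 to 46.3), and HPRT-targeted replicate 4 was high for ATR (22.57, others 18.6 to 18.9).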

How the results depend on the processing

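The number of called genes, 0 with all libraries, was 17 by DESeq2, 5 by limma voom, 55 without both libraries that stand apart and 0 to 2 when each library was left out (2, DPH1 and OVCA2, without HPRT-targeted replicate 3). Genes at an unadjusted p under 0.05, 669 in all, numbered 1382 by limma voom, 432 with only the 8 libraries in the fit, 155 with all 27, 1661 without the pair and 460 to 1581 with each library left out, the highest without SMAD3 deletion replicate 4. Genes called near SMAD3 and HPRT1 went from 0 to 2 without the pair. SMAD3 stayed between -0.48 and -0.27 and HPRT1 between 0.31 and 0.69 over all alternatives, with no call. Against the contrast of set B, calls were 1 by limma voom, 39 without the libraries that stand apart and 0 to 2 with each library left out (2 without LDAH deletion replicate 4, 1 without HPRT-targeted replicate 3).

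List medians that moved by more than their spread did so without the pair, for p53 targets (-0.054) and cholesterol genes (-0.14); with each library left out they ran from -0.049 to 0.11 for p53 targets, from -0.15 to -0.040 for cholesterol genes and from -0.20 to 0.11 for epithelial and blood genes. The spread is the SD, between libraries of a group, of the list's mean log2 CPM, with the libraries that stand apart included. It was widest for matrix genes (0.73), whose median ran from -0.20 to 0.28 with each library left out. Mitochondrial genes (spread 0.31) and proliferation genes (0.23) moved to -0.59 and 0.11 without the pair, by less than their spread. Single genes with values near 0 turned sign. By limma voom these were SMAD6 (-0.077), KRT19 (-0.13), SNAPC5 (-0.16), PIAS1 (-0.015) and MOSPD1 (-0.036); at a mean of 10 CPM RTL8C (0.0019); with all 27 libraries KRT19 (-0.0018); and without the pair SMAD6 (-0.17), KRT19 (-0.11), SNAPC5 (-0.19), PIAS1 (-0.056), MOSPD1 (-0.035), MYC (0.0021) and RTL8B (-0.11). Leaving out each library gave ranges that cross 0 for KRT19 (-0.20 to 0.11), TIPIN (-0.075 to 0.17), RTL8C (-0.083 to 0.036), RTL8A (-0.12 to 0.0076), CALML4 (-0.049 to 0.33), SMAD6 (-0.11 to 0.24), HEY2 (-0.020 to 0.21), MAP2K1 (-0.27 to 0.022), PIAS1 (-0.025 to 0.079), RTL8B (-0.026 to 0.36), CCN2 (-0.020 to 0.13), SMAD2 (-0.0026 to 0.15), SNAPC5 (-0.14 to 0.26), MOSPD1 (-0.0018 to 0.31), ZNF75D (-0.31 to 0.17) and TNIP1 (-0.26 to 0.0085). The cause was not tested.

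No paired analysis was possible because the replicate numbers are in accession order and pair no libraries. Depth limits genes of a few CPM, such as SMAD6 and SMAD7.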
